A study of Mus musculus with 4 samples.

Results

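Short IgD ChIP-seq peaks that lay at the start or the end of a protein-coding gene were examined in sorted mouse pro-B cells. A peak was taken when it lay on chromosomes 1-19, was narrower than 2000 bp, and had its summit, the base of highest signal, within 1000 bp of either annotated end of a protein-coding RefSeq gene (mm10, the same assembly as GRCm38). This gave 257 of the 11375 peaks of the first list and 1418 of the 40628 peaks of the second list, 1675 of 52003 peaks in all. The lists were kept apart. The peaks were selected on 2 measured values, width and summit position, so neither is a result in itself. Peak strength, the side of the gene start, the CpG content of the promoter and the overlap between the lists played no part in the choice.

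The cells were B220+IgM-CD43+ pro-B cells of WT mice, sorted from bone marrow, fixed with formaldehyde and sonicated. Chromatin was precipitated with an antibody against mouse IgD in 2 libraries and with mouse IgG, the isotype control, in the other 2. IgD1 was compared with IgG1 (pair 1) and IgD2 with IgG2 (pair 2), which gave 1 peak list per pair. The title of the series names nuclear IgD, proliferation and the expression of E2f3, which encodes an activator E2F that drives cells into S phase. Strain, sex and age, and whether the pairs came from separate mice, are not stated in the labels, and no list of peaks for IgG alone was used here. The second list is therefore the only check on the first, and no value below has a spread between animals behind it.

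IgD is an immunoglobulin class that mature B cells carry on their surface before they meet antigen, and pro-B cells stand before the stage at which a complete immunoglobulin is displayed. The start of a coding gene is where RNA polymerase II is loaded. In mice many starts lie in CpG islands, stretches rich in the CG dinucleotide whose chromatin is often open, whereas tissue-specific genes such as odorant receptors mostly start in CpG-poor sequence. The end of a gene, where the transcript is cleaved and polyadenylated, has no such island as a rule.

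Peak summits fell both in CpG islands and in sequence with almost no CpG, and the promoters below show this range. For each list they are 3 windows that held the summit of a selected peak at a high fold. In these genes the start in the RefSeq promoter table is also the annotated start, and no other gene enters the window. E2f3 was added as the gene named in the title. Each run goes 5′ to 3′ on the gene's strand, from 250 bases before the start to 30 bases from the start on (RefSeq, GRCm38.p6), with each CG in capitals.
Smagp (pair 1, chr15:100636911-100637190, minus strand): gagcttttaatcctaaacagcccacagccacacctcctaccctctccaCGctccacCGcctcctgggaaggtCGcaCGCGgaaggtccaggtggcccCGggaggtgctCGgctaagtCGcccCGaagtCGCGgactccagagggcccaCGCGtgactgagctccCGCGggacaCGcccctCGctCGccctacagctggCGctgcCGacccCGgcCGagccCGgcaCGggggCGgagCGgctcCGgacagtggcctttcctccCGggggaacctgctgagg
Gm21936 (pair 1, chr12:87795250-87795529, plus strand): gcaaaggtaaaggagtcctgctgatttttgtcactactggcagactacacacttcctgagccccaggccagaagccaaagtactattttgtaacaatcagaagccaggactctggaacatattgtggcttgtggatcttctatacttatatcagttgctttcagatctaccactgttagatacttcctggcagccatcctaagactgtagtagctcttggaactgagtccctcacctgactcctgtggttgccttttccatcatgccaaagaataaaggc
Olfr175 (pair 1, chr16:58826732-58827011, minus strand): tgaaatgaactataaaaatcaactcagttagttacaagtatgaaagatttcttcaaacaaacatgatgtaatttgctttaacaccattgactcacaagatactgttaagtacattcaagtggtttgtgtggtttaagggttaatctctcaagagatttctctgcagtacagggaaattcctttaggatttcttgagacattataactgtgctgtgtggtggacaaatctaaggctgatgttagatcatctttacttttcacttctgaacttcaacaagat
Zfp128 (pair 2, chr7:12880928-12881207, plus strand): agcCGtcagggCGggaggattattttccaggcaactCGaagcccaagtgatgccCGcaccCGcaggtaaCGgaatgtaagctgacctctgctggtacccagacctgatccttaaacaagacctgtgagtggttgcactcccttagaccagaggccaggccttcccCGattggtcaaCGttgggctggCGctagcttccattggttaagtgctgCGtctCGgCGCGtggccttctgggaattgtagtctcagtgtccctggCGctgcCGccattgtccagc
Olfr1168 (pair 2, chr2:88184629-88184908, plus strand): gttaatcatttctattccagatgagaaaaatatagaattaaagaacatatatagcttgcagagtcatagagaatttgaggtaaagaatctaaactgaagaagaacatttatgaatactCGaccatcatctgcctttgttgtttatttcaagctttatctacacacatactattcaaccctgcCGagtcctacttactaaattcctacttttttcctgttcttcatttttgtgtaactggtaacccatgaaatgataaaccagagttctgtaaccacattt
Fxr2 (pair 2, chr11:69632721-69633000, plus strand): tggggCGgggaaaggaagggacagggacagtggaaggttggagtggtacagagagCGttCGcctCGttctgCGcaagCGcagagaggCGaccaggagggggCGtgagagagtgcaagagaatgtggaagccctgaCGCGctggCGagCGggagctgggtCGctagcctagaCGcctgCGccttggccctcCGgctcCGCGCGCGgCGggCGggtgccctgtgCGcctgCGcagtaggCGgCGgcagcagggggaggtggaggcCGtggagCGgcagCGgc
E2f3 (pair 2, chr13:29984362-29984641, minus strand): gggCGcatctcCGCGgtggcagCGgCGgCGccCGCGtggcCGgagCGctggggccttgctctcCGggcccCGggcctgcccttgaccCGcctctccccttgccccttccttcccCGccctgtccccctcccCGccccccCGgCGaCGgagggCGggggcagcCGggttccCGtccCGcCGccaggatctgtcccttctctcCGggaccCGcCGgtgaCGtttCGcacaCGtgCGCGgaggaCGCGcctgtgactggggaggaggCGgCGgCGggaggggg

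Smagp, a small cell adhesion glycoprotein gene, carried the strongest pair 1 peak at a gene start. The summit lay 136 bp before the start, with a fold of 7.99 and 29 IgD fragments (95% exact Poisson interval 19.4 to 41.6). Fold is the enrichment the peak caller gave for the summit, IgD fragments over a local background, and fragment numbers were solved from fold and p-value. The intervals of fragments and of shares cover counting error only. The window held 30 CpG, and its CpG observed over expected, the number of CG relative to what its C and G content gives, was 0.806. At Gm21936, a gene with a provisional name, and Olfr175, an odorant receptor gene, the fold was 3.99 from 14 fragments (7.65 to 23.5). The Gm21936 window had 1 CpG and the Olfr175 window had 0. Olfr191 (fold 5.33, 2 CpG) and Lrat (4.26, 21 CpG) also had a pair 1 summit in the window of their annotated start. Their folds were higher than 3.99, and their windows are not printed. The Lrat peak overlapped a pair 2 peak.

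In pair 2, the peak at Zfp128, a zinc finger gene, had a fold of 9.19 from 33 fragments (22.7 to 46.3), with the summit 85 bp before the start and 17 CpG in the window. The odorant receptor gene Olfr1168 had a fold of 6.76 from 24 fragments (15.4 to 35.7) at a window with 2 CpG. Fxr2, an RNA-binding protein of the fragile X family, had a fold of 6.67 from 37 fragments (26.1 to 51.0) in a window with 32 CpG. None of the peaks at Smagp, Gm21936, Olfr175, Zfp128, Olfr1168 and Fxr2 overlapped a peak of the other list.

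E2f3 (chromosome 13, 29906575 to 29986064, minus strand) is known to be transcribed from a pair of promoters, and the promoter table lists 2 starts for it. Its pair 2 peak spanned chr13:29984222-29984747, with a fold of 5.57 and 34 fragments (23.5 to 47.5). The summit lay 1637 bp inside the annotated gene start and so outside the 1000 bp window, which keeps it out of the 1418 peaks. It lay 36 bp upstream of the inner start at 29984391, in a window of 78.7% GC that held 37 CpG with an observed over expected of 0.797. Of the 1418 pair 2 peaks, 183 had a higher fold. Pair 1 had no peak at E2f3.

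Summits gathered at gene starts in both lists, most of all just inside, and not at gene ends. Strand was known for 16456 of 20554 coding genes. From 0 to 1000 bp downstream of these starts lay 94 pair 1 summits of narrow peaks, against 176 in the flanks from 1000 to 3000 bp on either side. Per base this was 2.14 times the flank (95% interval 1.65 to 2.76). In pair 2 there were 422 summits against 1015, a ratio of 1.66 (1.48 to 1.86). Both intervals lay above 1, and the list with fewer peaks had the higher ratio. In these counts around starts and ends, a summit near several genes was counted for each of them. The intervals treat such counts as independent.

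Upstream of the start the summits were closer to the level of the flanks. The 1000 bp before the start held 47 summits in pair 1 (ratio 1.07, 0.757 to 1.48) and 317 in pair 2 (1.25, 1.10 to 1.42). The upstream interval of pair 2 lay above 1. Downstream lay 66.7% of the 141 summits within 1000 bp in pair 1 (95% Wilson interval 58.5 to 73.9) and 57.1% of 739 in pair 2 (53.5 to 60.6). In bins of 500 bp, pair 1 had 27 summits in the last bin before the start, 49 in the first bin after it and 45 in the next. Pair 2 had 185, 241 and 181. The maximum of both lists was thus the bin from 0 to 500 bp inside the gene.

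At gene ends the pattern was flat, with a shallow dip past the end. Pair 1 had 50 summits in the last 1000 bp of genes and 37 in the 1000 bp past the end, against 181 in the flanks. The ratios were 1.10 (0.791 to 1.52) and 0.818 (0.558 to 1.17), and both intervals included 1. Pair 2 had 287 and 237 summits against 1173, with ratios of 0.979 (0.857 to 1.11) and 0.808 (0.700 to 0.930). Past the end, the interval of pair 2 lay below 1.

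**Figure D1:**
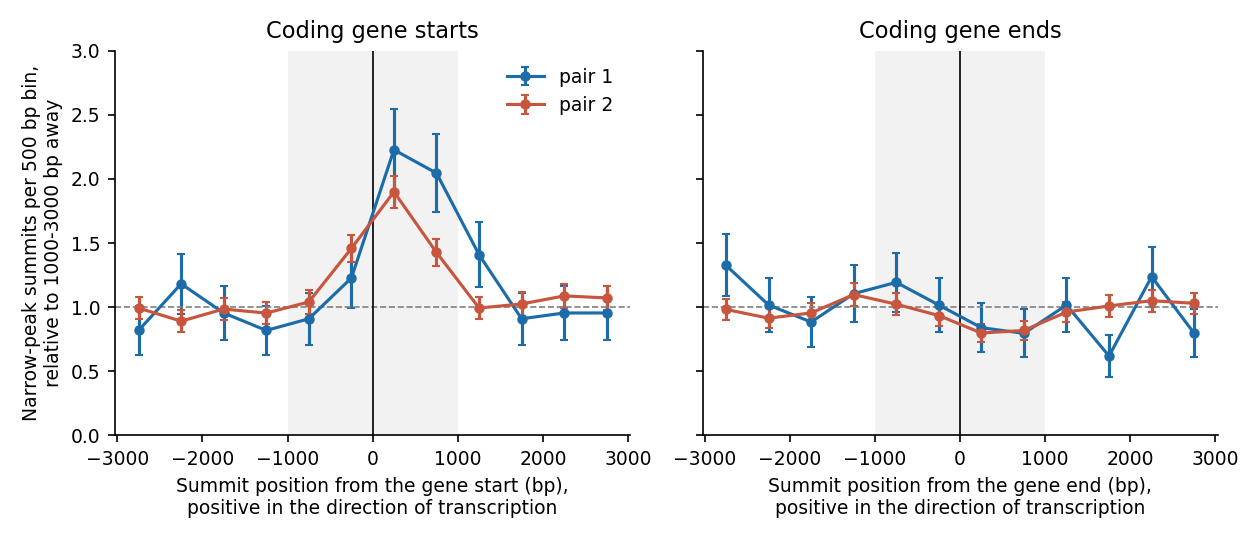
Narrow-peak summits in bins of 500 bp around the starts (left) and ends (right) of 16456 coding genes of known strand, relative to the mean bin from 1000 to 3000 bp away (dashed line). Points are counts over that mean, error bars are the square root of the count on the same scale, the shaded band is the 1000 bp window, and the 2 bins inside the start stand highest in pair 1.

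The side of the gene could also be read from the selected peaks, each assigned to its nearest coding gene end. In pair 1, 131 lay nearest to a start, 71 nearest to an end and 55 nearest to a gene of unknown strand. The start share was 64.9% of 202 peaks (58.0 to 71.1). In pair 2 the numbers were 680, 473 and 265, a start share of 59.0% of 1153 (56.1 to 61.8). Narrow peaks whose nearest end was 1000 to 3000 bp away had a start share of 47.6% of 273 in pair 1 (41.8 to 53.5) and 46.5% of 1607 in pair 2 (44.1 to 49.0). Starts were thus in the majority within 1000 bp and not beyond.

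About the same part of each list touched the start itself. The peak, and not only its window, covered the start in 53 of 131 cases in pair 1 (40.5%) and in 316 of 680 in pair 2 (46.5%). It covered the end in 28 of 71 (39.4%) and 172 of 473 (36.4%). Summits lay inside the gene in 156 of 257 cases in pair 1 (60.7%, 54.6 to 66.5) and in 798 of 1418 in pair 2 (56.3%, 53.7 to 58.8). A few peaks served neighbouring genes at once. In pair 1, 13 lay within 1000 bp of 2 genes, 3 of them near the start of both. In pair 2, 103 did, 33 of them near the start of both.

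The windows took a small part of each list. They cover 74.4 Mb, 3.10% of the 2402 Mb between the outermost genes of the chromosomes. Of the narrow peaks on chromosomes 1-19, 3.21% of 8015 in pair 1 (2.84 to 3.62) and 3.91% of 36312 in pair 2 (3.71 to 4.11) had their summit in a window. The pair 1 interval included the share of the span and the pair 2 interval lay above it, where the span also holds sequence to which reads cannot be mapped. At the 1000 bp limit, the last pair 1 peaks inside were at Scgb2b27 (1000 bp, fold 3.19) and Zbtb49 (999 bp, 2.66), and the nearest outside at Sec61a1 (1007 bp, 2.42) and Sirpb1a (1019 bp, 2.71). In pair 2 these were Foxc1 (1000 bp, fold 4.60) and Gm5799 (999 bp, 4.05) inside, and Gpr84 (1001 bp, 6.49) and Ror1 (1001 bp, 3.78) outside. At the limit on width, the widest peaks kept were 1782 bp at Gm47189 and 1676 bp at Lrat in pair 1, and 1990 bp at Exoc3 and 1973 bp at Unc45a in pair 2. The narrowest left out were 2006 bp at Gm21671 and 2166 bp at Adcyap1r1, and 2028 bp at Pramel30 and 2056 bp at Tshr.

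The CpG content of the promoter separated the gene starts in pair 1. With a limit of 0.6 on CpG observed over expected, 8197 of the 16456 starts were CpG-rich and 8259 CpG-poor. Pair 1 had 47 summits in the 1000 bp downstream of CpG-rich starts and 47 downstream of CpG-poor starts. The flanks of the CpG-rich starts held 53 summits and those of the CpG-poor starts 123. The ratio to the flank was 3.55 at CpG-rich starts (2.34 to 5.35) and 1.53 at CpG-poor starts (1.07 to 2.16). The equal numbers inside the genes thus stood over unequal surroundings, and CpG-rich starts had fewer narrow pair 1 peaks around them.

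In pair 2 both classes had like surroundings. The flanks held 514 summits at CpG-rich and 501 at CpG-poor starts, with 233 and 189 summits downstream. The ratios were 1.81 (1.55 to 2.12) and 1.51 (1.27 to 1.79), and these intervals overlapped. The split by CpG was added after the data had been seen, and its difference between the lists was not tested.

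**Figure D2:**
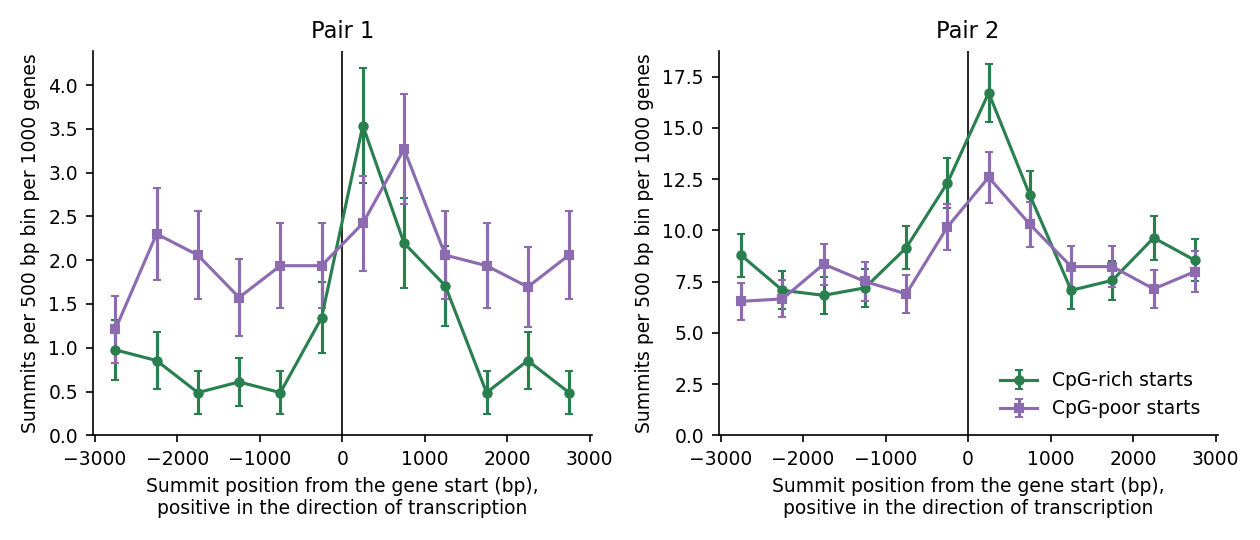
Narrow-peak summits per 500 bp bin and 1000 genes around CpG-rich (circles) and CpG-poor (squares) coding gene starts in pair 1 (left) and pair 2 (right), with the square root of the count as error bars; the y axes differ between panels. In pair 1 the CpG-rich curve lies below the CpG-poor one in the flanks (53 against 123 summits from 1000 to 3000 bp), while in pair 2 the flanks of both are alike (514 against 501).

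Read by gene, 43.6% of the 140 pair 1 genes with a selected peak at the start had a CpG-rich promoter (61 genes, 35.6 to 51.8), against 49.8% of all 16456. In pair 2 it was 55.4% of 733 (406 genes, 51.8 to 59.0). The pair 2 interval lay above the share of all promoters and the pair 1 interval included it, so no direction is read from pair 1. Summits fell inside the 300 bp promoter window itself at 31 genes in pair 1 and 147 in pair 2, of which 51.6% (34.8 to 68.0) and 57.1% (49.1 to 64.9) were CpG-rich.

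Short promoter motifs were searched on both strands of these 300 bp windows, as exact letters. The TATA box letters TATAAA stood in 13.5% of all promoters, in 15.7% of those with a pair 1 peak at the start (10.6 to 22.6) and in 10.1% of those with a pair 2 peak (8.12 to 12.5), an interval below the share of all. With the pair 2 summit inside the window it was 10.2% (6.28 to 16.2), an interval that included 13.5%. GGGCGG, the GC box letters bound by Sp1, stood in 47.3% of all, 45.7% in pair 1 (37.7 to 54.0) and 52.1% in pair 2 (48.5 to 55.7). GGGCGG holds a CpG, so it moves with CpG content. CCAAT stood in 39.1%, 33.6% and 38.9%, and the E-box CAGCTG in 15.2%, 17.9% and 14.5%.

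The letters of E2F sites were rare everywhere. TTTCGCGC stood in 0.468% of all promoters, 0.714% in pair 1 (1 gene) and 0.955% in pair 2 (7 genes). TTTGGCGC stood in 0.675%, 2.14% (3 genes) and 0.682% (5 genes), and TTTCCCGC in 1.48%, 2.14% (3 genes) and 1.23% (9 genes). The interval of TTTGGCGC in pair 1 (0.731 to 6.11) lay above the share of all promoters, on 3 genes, and the others included it. The palindrome TGACGTCA, the CRE letters, stood in 2.40% of all promoters and in 1 pair 1 gene. In pair 2 it stood in 27 genes (3.68%, 2.54 to 5.31), an interval above the share of all. With the pair 2 summit inside the window it was 3.40% (1.46 to 7.71), an interval that included 2.40%. TGACGTCA holds a CpG, as GGGCGG does, so it can also move with CpG content. The motif intervals were not corrected for the number of motifs searched, so no excess or lack of any motif is read from them.

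Strength at the summit was about the same as in other narrow peaks. The median fold of the selected peaks was 3.46 in pair 1 and 3.78 in pair 2, and the other narrow peaks on chromosomes 1-19 had medians of 3.46 and 3.78. Pair 1 folds spanned 2.21 to 9.46 and pair 2 folds 1.80 to 11.3. The median summit rested on 13 fragments in pair 1 and 15 in pair 2, over a commonest background of 2.756 and 2.699. At this depth a difference of a few fragments between genes lies within the counting error. Peaks nearest to a start had median folds of 3.46 and 3.78, with medians of 13 and 15 fragments. Peaks nearest to an end had 3.20 and 3.51, with 12 and 14 fragments, and this gap between medians was not tested. Peaks of unknown strand had 3.73 and 3.82, with 13 and 15 fragments. The folds of starts and ends overlapped over most of their range.

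**Figure D3:**
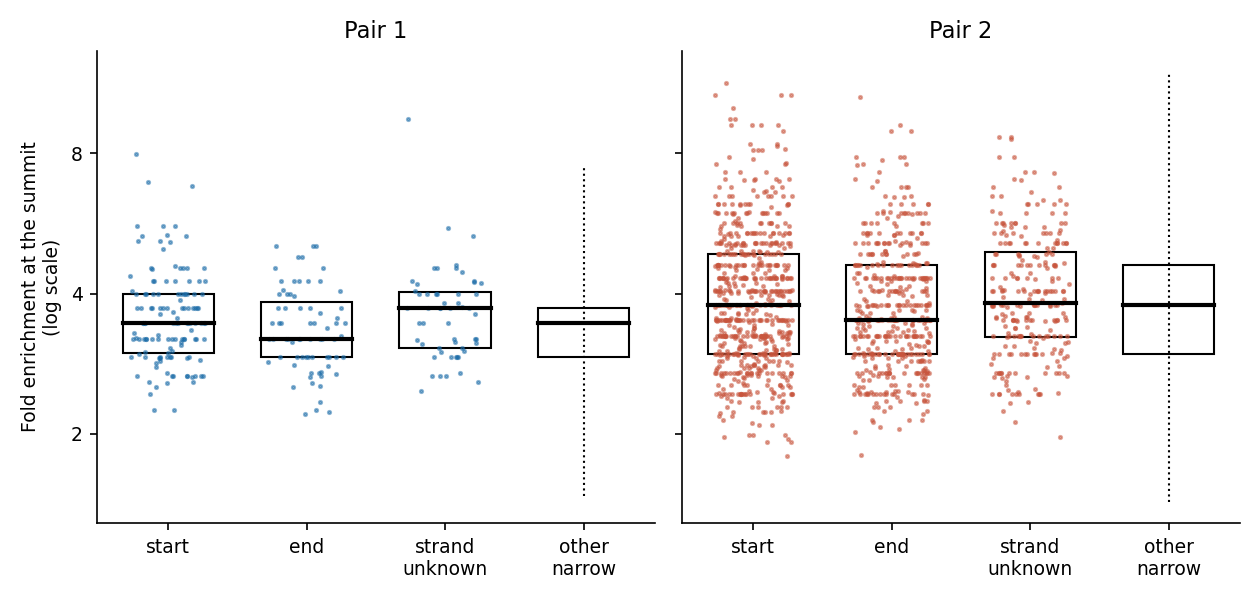
Fold enrichment at the summit (log axis) of each selected peak nearest to a gene start, to a gene end or to a gene of unknown strand, in pair 1 (left) and pair 2 (right). Thick lines are medians, boxes span the quartiles and the dotted line spans the full range of the other narrow peaks. The medians are 3.46 and 3.78 at starts, 3.20 and 3.51 at ends and 3.73 and 3.82 for unknown strand.

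A difference showed in the upper part of the distribution. The −log10 q, the peak caller's adjusted significance, was at least 5 in 43 of 257 pair 1 peaks (16.7%, 12.7 to 21.8) against 10.9% of the other narrow peaks (10.3 to 11.6). In pair 2 it was 594 of 1418 (41.9%, 39.3 to 44.5) against 37.2% (36.7 to 37.7). In both lists the intervals did not overlap. Starts had 17.6% and 44.6%, and ends 11.3% and 37.4%, the latter close to the other narrow peaks.

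Counted over peaks of any width in the other list, a smaller share of the selected peaks than of the other narrow peaks was overlapped. In pair 1, 36 shared at least 1 bp with a peak of pair 2 (14.0%, 10.3 to 18.8), against 1594 of 7758 others (20.5%, 19.7 to 21.5). In pair 2, 31 did so with a peak of pair 1 (2.19%, 1.54 to 3.09), against 1430 of 34894 others (4.10%, 3.90 to 4.31). Against narrow peaks only, the shares were 6.23% (3.87 to 9.87) beside 8.70% of the others in pair 1 and 1.27% (0.804 to 2.0) beside 1.92% in pair 2, and both intervals included the share of the others. Summits within 200 bp of each other were found for 3 selected peaks in pair 1 (1.17%, 0.398 to 3.38) beside 2.85% of the others, and for 4 in pair 2 (0.282%, 0.110 to 0.723) beside 0.590%. These intervals also included the share of the others, so under both rules the difference lay within counting error. Nearness to wide peaks differed as well in pair 1, where 12.1% of the selected peaks lay within 100 kb of a peak of at least 5000 bp (8.63 to 16.6) against 23.1% of the others (22.2 to 24.0). In pair 2 it was 4.16% (3.24 to 5.33) against 4.79%, a share inside the interval. The part of wide peaks in the overlap was not tested.

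**Figure D4:**
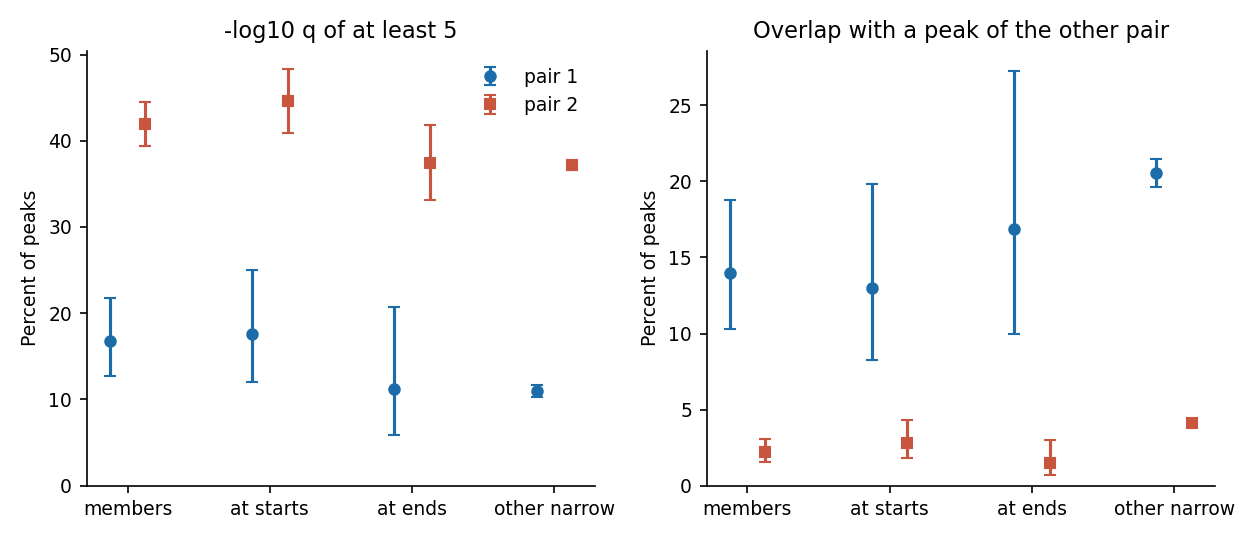
Share of peaks with a −log10 q of at least 5 (left) and share that overlap a peak of the other pair by at least 1 bp (right), with 95% Wilson intervals. The selected peaks (members) stand above other narrow peaks for q (16.7% against 10.9% in pair 1, 41.9% against 37.2% in pair 2) and below them for overlap with a peak of any width (14.0% against 20.5%, 2.19% against 4.10%).

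Counted by gene, 263 coding genes had a selected peak in pair 1 (1.28% of 20554) and 1466 in pair 2 (7.13%). Starts were hit in 140 genes (0.851% of those of known strand) and 733 genes (4.45%), and ends in 87 (0.529%) and 522 (3.17%). In all, 1694 genes had one in either list (8.24%). The median length of these genes was 15856 bp in pair 1 and 17619 bp in pair 2, against 17590 bp for all coding genes. By chromosome, pair 1 had between 0.483 selected peaks per 100 coding genes (chromosome 13) and 2.0 (chromosome 14). Pair 2 had between 5.0 (chromosome 6) and 8.99 (chromosome 4).

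The strongest pair 1 peaks at gene starts lay mostly inside the gene. After Smagp came Ism2, a secreted isthmin, with a fold of 6.92 from 25 fragments (16.2 to 36.9), 262 bp inside. Ttc39b, a tetratricopeptide repeat gene, had 6.79 from 27 fragments, 624 bp inside. Ephb3, an ephrin receptor kinase, Ntan1, an amidase of the N-degron pathway, and Osbpl3, an oxysterol-binding protein homologue, each had 5.59 from 20 fragments (12.2 to 30.9). Rpl38, a protein of the large ribosomal subunit, and Kif13a, a kinesin, had 5.33, as did the odorant receptor gene Olfr191. H2-Q6, a class I histocompatibility gene, had 5.18. Of these 10 summits 9 lay downstream of the annotated start. Only the Ntan1 peak overlapped a pair 2 peak.

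The highest pair 2 folds at starts were larger. Rere, an atrophin family corepressor, had 11.3 from 49 fragments (36.3 to 64.8), 513 bp inside the gene. Ltbp3, a latent TGF-beta binding protein, Rnpep, an aminopeptidase, and Cd9, a tetraspanin, each had 10.7, from 41, 40 and 43 fragments. Foxo3, a forkhead transcription factor, had 10.0 from 36 fragments (25.2 to 49.8), 429 bp before its start. Mbd3, a subunit of the NuRD complex, had 9.48 and Rnpepl1 9.45. B3gat1, a glucuronyltransferase, Kcnc4, a potassium channel, and Pgm1, a phosphoglucomutase, each had 9.19 from 33 fragments. Again 9 of 10 summits lay inside the gene, and none of these peaks overlapped a pair 1 peak.

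At gene ends the highest pair 1 folds were 5.06 at Lamp1, a lysosomal membrane protein, from 24 fragments (15.4 to 35.7), and at Olfr152 and Tmem61, from 18. Ecsit, an adaptor of Toll-like receptor signalling, had 4.79, with the summit 18 bp past its end and also close to the start of Zfp653. Pramel15 had 4.79, Med20, a Mediator subunit, and Slc13a5, a citrate transporter, had 4.53, and Abtb1, Lrmda and Olfr724 had 4.26. In pair 2 Adamtsl2 had 10.5 from 38 fragments (26.9 to 52.2), 618 bp past the end. Abcb11, the bile salt export pump, had 9.18, and H2-T-ps and Mrgprg had 8.92. Frk, a Src-related kinase, Mrgbp and Mvp, the major vault protein, had 7.84, Taf5l 7.75, and Bpifb5 and Nt5c3b 7.57. Of these 20, the peaks at Pramel15 and Frk overlapped a peak of the other list.

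Where strand was unknown, the highest pair 1 folds were 9.46 at Gm45871 from 38 fragments, 5.52 at Cables1, 5.33 at the histone methyltransferase gene Nsd3 and 4.61 at Aplnr, the apelin receptor. In pair 2 they were 8.65 at Podnl1 and Prdm6, 8.58 at Cacna1a, a calcium channel, and 7.84 at Aup1. The Gm45871 peak had the highest fold of all 257. None of these peaks overlapped the other list, and they were picked after their values had been seen.

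In both lists, 35 coding genes had a selected peak, 0.17% of all. They made up 13.3% of the pair 1 genes, beside 7.13% of all coding genes with a pair 2 peak. Of the pair 2 genes they made up 2.39%, beside 1.28% of all coding genes with a pair 1 peak. Both shares stood above those of all coding genes, and the difference was not tested. Some of the shared genes lie close together on a chromosome, so the shares do not rest on independent genes. For each gene the closest pair of peaks was compared. At 22 genes both peaks lay at the same end, at 13 of them the start, at 4 the end, and at 5 strand was unknown. The peaks overlapped at 11 genes. Summits stood within 1000 bp of each other at 17 genes and within 200 bp at 3. In 18 genes the fold was higher in pair 2. Pair 1 folds spanned 2.26 to 5.59 (median 3.46) and pair 2 folds 1.92 to 7.30 (median 3.62). At 2 genes, A4gnt and Slc13a5, the −log10 q was at least 5 in both.

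The 3 genes with the closest summits had modest folds. At Esyt3, an extended synaptotagmin that tethers membranes, the summits lay 645 and 635 bp before the start, 10 bp apart. The fold was 3.20 from 11 fragments (5.49 to 19.7) in pair 1 and 5.41 from 19 fragments (11.4 to 29.7) in pair 2. At Scgb1b19, a secretoglobin of a repeated gene cluster, they were 27 bp apart with folds of 3.99 and 5.41. At Cdc42bpa, a kinase downstream of Cdc42, they were 144 bp apart, 324 and 468 bp inside the start, with folds of 3.46 and 2.97. Reads in repeated genes such as the secretoglobins can map to several copies, and how the authors treated them is not given in the sources used here.

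Ranked by fold in both lists, A4gnt, a glycosyltransferase of gastric mucin, came first. Its closest peaks had folds of 4.53 and 7.03 and lay 940 and 409 bp before the start, overlapping. Dzip1l, a ciliary gene, followed, with 3.73 and 3.51 at its end for the closest peaks, and Galntl6 with 3.99 and 6.49 at opposite ends of the gene. Slain2, a microtubule-binding protein, had 3.73 and 5.95 at its start. Lilra5, a leukocyte immunoglobulin-like receptor, had 2.52 and 7.30, the widest gap between the lists. Icosl, the ligand of the T cell costimulator ICOS, had 3.20 and 5.02, 151 bp before and 835 bp inside the start. These peaks at Icosl did not overlap. Some of the shared genes were neighbours and are not independent cases. On chromosome 9, Esyt3 (from 99309963), A4gnt (from 99591179) and Dzip1l (from 99629501) lay close together. So did Fzd3 and Fbxo16 on chromosome 14, and Scgb1b19 and Scgb1b20 on chromosome 7. Whether the shared genes gather in a few regions was not tested.

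Ntan1 had the highest pair 1 fold of the 35, 5.59 against 3.54 in pair 2, with overlapping peaks 438 and 733 bp inside the start. Kif13a had 5.33 and 3.24, 489 bp inside and 767 bp before the start, without overlap. Lrat, which esterifies retinol, had 4.26 and 3.51 in overlapping peaks at its start. Slc13a5 had 4.53 and 4.33 on either side of its end. Dnajb11, a chaperone of the endoplasmic reticulum, had 3.99 and 3.62, and Aplnr 2.66 and 3.28. The remaining genes among the first 25 were Frk, Scgb1b20, Olfr566, Bsph1, Fzd3, a Wnt receptor, Pramel5, Fbxo16, Fam131b, Gm51591, Cyp2b13 and Vmn2r54.

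**Figure D5:**
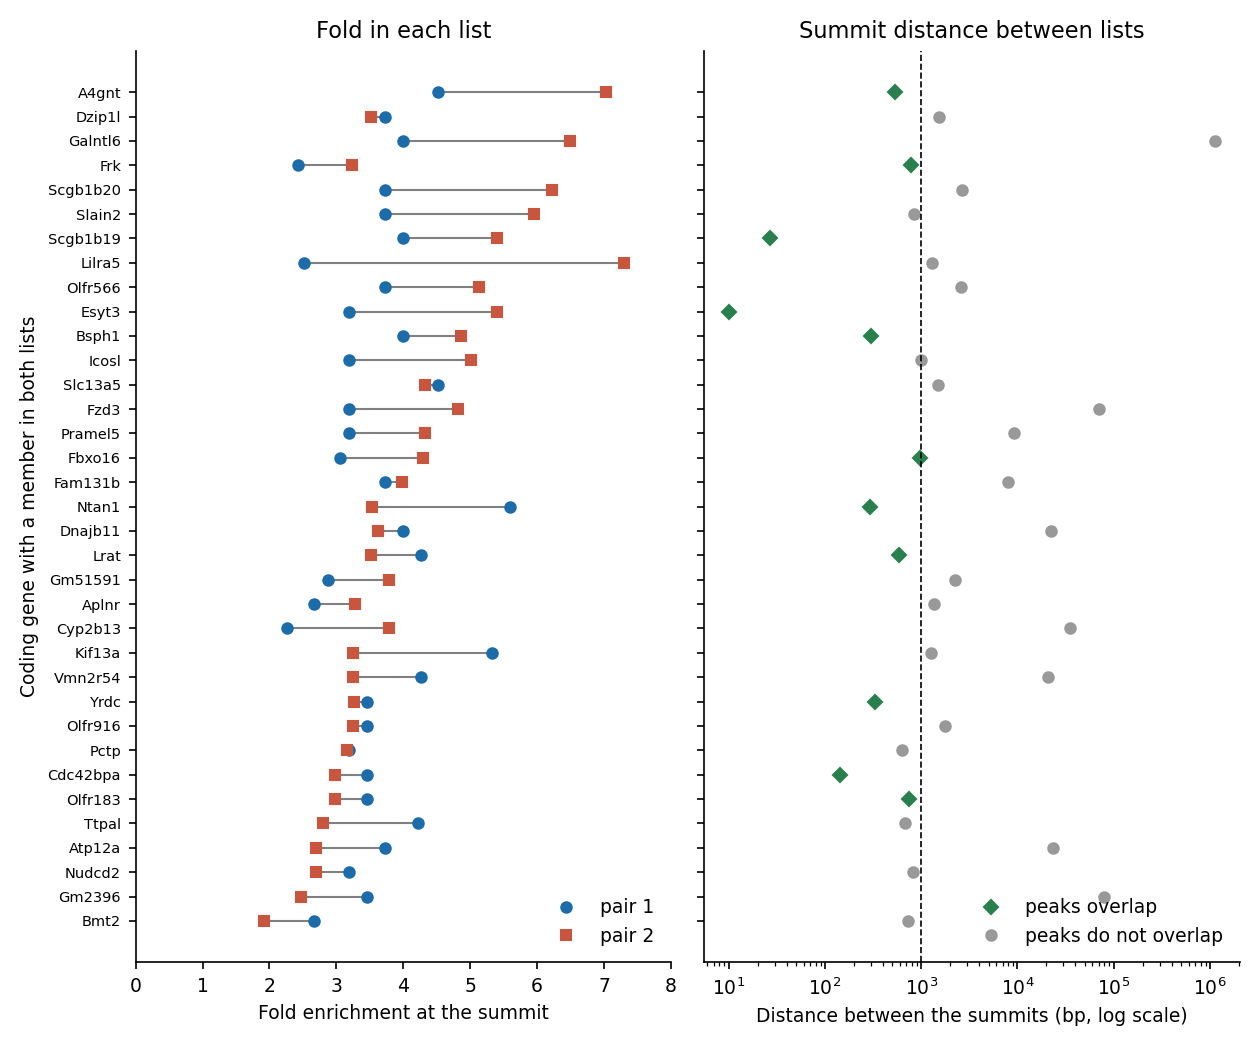
Fold at the summit in each list (left) and distance between the 2 summits on a log axis (right) for the closest pair of peaks at each of the 35 coding genes with a selected peak in both lists, ordered by the mean rank of their highest folds. Diamonds are overlapping peaks (11 genes), the dashed line marks 1000 bp, and 17 genes lie to its left.

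Cell cycle genes, the subject of the title, carried these peaks in shares near those of all coding genes. In pair 1 none of 13 E2F family members and partners had one, and in pair 2 only E2f5, a repressor-type E2F, did (fold 3.51 from 12 fragments, 6.20 to 21.0). Of 50 E2F targets and DNA replication genes, pair 1 had 1 (2.0%), Uhrf1, a reader of hemimethylated DNA, with a fold of 2.96. Pair 2 had 3 (6.0%), namely Orc1, a subunit of the origin recognition complex (2.97), Pole, the leading-strand polymerase (3.56), and Prim2, a primase subunit (2.24). None of 18 G1 regulators had one in either list. Of 30 genes of G2 and mitosis, pair 1 had Kif11, a spindle kinesin (3.20), and pair 2 had Bub1b, a checkpoint kinase (3.51), and Cdc25b, a phosphatase (2.36). The shares stood near the 1.28% and 7.13% of all coding genes, and 0 genes of these lists had a peak in both.

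B-lineage genes gave a like picture. Of 26 early B-lineage transcription factors, 0 had a selected peak in pair 1 and only Tcf12, an E protein, in pair 2 (fold 2.22). Of 30 pro-B surface and signalling genes, pair 1 had Cd24a (3.06). Pair 2 had 3 (10.0%, 3.46 to 25.6), which were Flt3, a receptor of early progenitors (2.97), Syk, the kinase of the pre-B cell receptor (5.26 from 29 fragments), and Vpreb1, part of the surrogate light chain (2.70). The 16 genes of V(D)J recombination and end joining had 0 in both lists.

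Markers of other blood cells were hit as well. Pair 1 had 0 of 20 myeloid, 0 of 20 T cell and 0 of 12 erythroid markers. Pair 2 had 4 myeloid markers (20%, 8.07 to 41.6), the granule protease genes Ctsg (4.42) and Prtn3 (3.75 from 38 fragments), Mpo, myeloperoxidase (2.43), and Csf3r, the G-CSF receptor (4.32). It had 3 T cell markers (15.0%, 5.24 to 36.0), Il2ra, the IL-2 receptor alpha chain (7.77 from 28 fragments), Cd247 (3.78) and Cd8a (3.20), all at their starts, and 0 erythroid markers. The myeloid interval lay above the 7.13% of all coding genes, on 4 of 20 genes, and the T cell interval included it. The gene lists were chosen with earlier results of these data known. Their intervals were not corrected for the number of lists compared, so no excess of myeloid markers is read from them. A peak gives no level of expression, and markers counted here say where peaks lay, not which cells were present. Of 19 neural genes, pair 1 had Map2 (3.99) and pair 2 had Olig2 (2.91).

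Housekeeping families followed the background of each list. Ribosomal protein genes had 1 of 80 in pair 1 (1.25%) and 5 in pair 2 (6.25%), and mitochondrial ribosomal protein genes 1 of 75 and 7 (9.33%, 4.59 to 18.03). Proteasome genes had 0 of 47 and 6 (12.8%, 5.98 to 25.2). The highest of these was Psmd9, an assembly chaperone (7.54), and the others were Psmg4 (4.33 and 2.43, at its start and its end), Psmf1 (3.52), Psme3 (3.50), Psma3 (3.24) and Psmb3 (2.49). Translation initiation factors had 0 of 53 and 5 (9.43%, 4.10 to 20.3), which were Eif4h (6.43), Eif3h (5.95), Eif1b (4.30), Eif5a2 (4.05) and Eif4g3 (2.77). Histone genes had 0 of 81 and 4 (4.94%, 1.94 to 12.0), and zinc finger genes 5 of 388 (1.29%) and 26 (6.70%). All of these intervals in pair 2 included 7.13%.

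Olfactory receptor genes, whose proteins detect odours in sensory neurons, had a share above the background in pair 1 and not in pair 2. They had a selected peak in 26 of 1103 cases (2.36%, 1.61 to 3.43) against 1.28% of all coding genes. In pair 2 it was 74 (6.71%, 5.38 to 8.34), an interval that included 7.13%. These genes are short and clustered, so 1 peak can lie near both ends of a gene or near a neighbour. The intervals treat the genes as independent and were not corrected for the number of gene lists compared, so no excess is read from them. Olfr183, Olfr566 and Olfr916 had a peak in both lists, with folds from 2.97 to 5.14, and the peaks overlapped at Olfr183 only.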

How the data were processed

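The 4 ChIP-seq libraries were described above, and the 2 deposited lists are narrowPeak tables. Per the submitters' processing notes the tools were ChIPseeker, HISAT2 and MACS2 and the build was mm10. Versions, settings and the treatment of duplicate or repeated reads (not given in the sources used here) are unknown. For each summit the fold enrichment (a ratio), the −log10 p-value and the −log10 q-value were deposited by the authors as the peak caller gave them. Both lists end at a −log10 q of about 1.3 (1.308 and 1.303). Library depths were not used. Fragments per summit were solved by assuming fold = (fragments + 1) / (background + 1) and a Poisson upper tail for p. The solution matched the deposited −log10 p within 0.01 for 11373 of 11375 and 40627 of 40628 peaks, and unscaled IgD fragments were assumed, which no source states.

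Gene positions came from a RefSeq table of GRCm38, from which 348 genes on scaffolds were dropped. Strand came from the RefSeq promoter table (GRCm38.p6) for 16456 of 20554 coding genes (80.1%), so the other genes were left out of counts by start or end. Shares carry 95% Wilson intervals, fragments exact Poisson intervals and ratios exact binomial ones. No test was run, since each group has 1 list. The members and the 18 gene lists were chosen with earlier results of these data known. Genes named were E2f3, the first 25 shared by the lists in mean rank of fold, the 10 highest folds at starts and at ends per list, genes with a peak in lists of 60 genes or fewer, and the peaks next to each limit; others were named after their values were seen. In all, 13 motifs were searched. Alternatives were stricter q and fold limits, other windows and widths, other overlap rules, equal list lengths and each list alone. Columns of other samples numbered 0. The procedures were tested on simulated data. The software was scipy 1.17.1, pandas 2.3.3, numpy 2.4.6 and, for plots, matplotlib 3.10.9, under Python 3.11.15.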

Additional observations from a re-analysis of the deposited data

How the results depend on the processing

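Of 114 values under alternative settings for 18 results, 49 stayed within 1.5 times a count or inside the interval of a share or median. The other 65 moved further. The pair 1 share of CpG-rich promoters changed sides of the 49.8% of all promoters: it was 43.6% as reported, and above 49.8% with a −log10 q of at least 5, with a 500 bp window and with the summit inside the promoter window (51.6%). Its interval included 49.8% under all 4 settings. The counts depend on the limits by construction, since these admit fewer or more peaks. With a −log10 q of at least 5, pair 1 kept 43 peaks at 45 genes and pair 2 594 peaks at 627 genes, with 2 genes in both lists and 670 in either; median folds were 4.61 and 5.08, start shares 74.2% and 63.1%, and overlaps with the other list 4.65% and 0.842%. In pair 1 this limit also gave 51.8% of summits within 3000 bp lying within 1000 bp (43.4% without it), 60% CpG-rich promoters and a ratio of 3.80 downstream of starts. With a fold of at least 5, 18 and 306 peaks were left at 19 and 323 genes, with 0 in both and 342 in either, and start shares of 80.0% and 65.0%. A window of 500 bp gave 140 and 800 peaks at 143 and 830 genes, 3 in both and 970 in either, with a pair 2 overlap of 1.5%, a pair 2 start share of 62.4% and 52.6% CpG-rich promoters in pair 1. A window of 2000 bp gave 428 and 2462 peaks at 404 and 2527 genes, 94 in both and 2837 in either, and a pair 2 start share of 53.6%. A window of 3000 bp gave 592 and 3418 peaks at 534 and 3459 genes, 153 in both and 3840 in either, and start shares of 54.9% and 51.7%. With pair 2 limited to its 11375 peaks of highest q, it had 438 peaks at 466 genes with a median fold of 5.41, 14 genes in both lists and 715 in either, and 8.17% of pair 1 peaks overlapped it. Counting only overlapping peaks, 11 genes had one in both lists. The overlap shares were 1.56% and 0.353% at 50% reciprocal overlap, 1.17% and 0.282% for summits within 200 bp, and 6.23% and 1.27% against narrow peaks only. A CpG limit of 0.75 gave 33.6% (26.3 to 41.7) and 38.7% (35.3 to 42.3) CpG-rich promoters, against 35.2% of all. The ratio downstream of starts in pair 1 was 3.55 at CpG-rich and 1.53 at CpG-poor starts, a split added after the data were seen, and the cause of the difference was not tested. Leaving out 1 list left between 263 and 1466 genes, so pair 2 decides the count in either list: without pair 2 it fell from 1694 to 263. No paired analysis was possible because each list is already 1 IgD library over the IgG library of the same number and no result comes from a test.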

Other observations

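Other classes of genes on the same chromosomes, counted by the same rule, had shares near or below that of coding genes, apart from snoRNA genes in pair 1. Small nucleolar RNAs guide the modification of ribosomal RNA, and many of their genes lie within introns. A narrow summit lay within 1000 bp of 35 of 1276 snoRNA genes in pair 1 (2.74%, 95% Wilson interval 1.98 to 3.79) and of 48 in pair 2 (3.76%, 2.85 to 4.95), with 3 in both lists. In pair 1 this lay above the 1.28% of coding genes and in pair 2 below the 7.13%. Pseudogenes had 110 of 8797 in pair 1 (1.25%) and 438 in pair 2 (4.98%), and lncRNA genes 129 of 12322 (1.05%) and 761 (6.18%). MicroRNA genes had 9 and 45 of 1136, snRNA genes 6 and 30 of 924, and tRNA genes 5 and 16 of 386. A short gene offers less sequence within 1000 bp of its ends than a long one, and snoRNA genes can lie in clusters, so these shares are descriptions of the lists.

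On the X chromosome, which the rule left out, 14 of 1161 narrow pair 1 peaks (1.21%) and 44 of 1953 narrow pair 2 peaks (2.25%) lay within 1000 bp of a coding gene end. The Y chromosome had 33 and 23 narrow peaks, and 0 of them lay that close.

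Of the other motifs searched, CACGTG, the E-box of Myc and USF, stood in 7.97% of all promoters, 5.71% in pair 1 and 8.73% in pair 2, and CCGGAAG, the ETS letters, in 12.3%, 9.29% and 13.8%. The NRF1 motif stood in 1.37% of all promoters, in 1 gene with a pair 1 peak at its start and in 6 with a pair 2 peak. The YY1 motif stood in 0.991%, 0.714% and 0.682%, and the EBF1 motif in 0.948%, 1.43% and 0.955%.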
